A study of Mus musculus with 15 samples.

Results

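The 10 genes described here are Park7 and 9 genes of antioxidant defence that sperm and their precursors use: Gpx4, Prdx4, Prdx6, Txnrd3, Txndc2, Nme8, Txndc8, Sod1 and Cat. They were taken by Entrez Gene ID from a table of 23510 gene IDs, and all 10 were present. Park7 was chosen by its measured FPKM, which varied strongly between libraries of the same group, so its values are given as a description with no test. The table holds 15 mouse testis libraries in 5 groups of 3, all from the outbred ICR stock. In the knockdown groups a muscarinic acetylcholine receptor, which is a receptor on the cell surface that binds acetylcholine, was targeted with lentivirus carrying a mixture of 3 short hairpin RNAs: the receptor was M1 in the group M1, M3 in the group M3 and M5 in the group M5. MNC received the control vector by the same route, and Con is labelled only as a control. Per the methods of the study, mice were injected at 5 weeks of age and testes were collected 10 days later. The whole tissue was sequenced, so fewer cells of a type and less RNA per cell cannot be told apart. The labels do not say whether each library came from a separate animal, and p-values therefore measure only the spread between these libraries, which may be technical.

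Sperm carry membranes rich in unsaturated lipids and discard most of their cytoplasm, so they depend on enzymes that remove superoxide, hydrogen peroxide and lipid peroxides. Superoxide dismutases turn superoxide into hydrogen peroxide, which is then removed by catalase, by peroxiredoxins and by glutathione peroxidases. Peroxiredoxins and related proteins are reduced again by thioredoxins, and thioredoxins by thioredoxin reductases. Several of these proteins have forms made mainly in spermatids. Park7 (also DJ-1) encodes a small protein that senses oxidation through a cysteine and is known from inherited Parkinson disease. In the testis the protein is found in germ cells and sperm.

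The values are FPKM, that is, fragment counts divided by gene length and by how many fragments mapped in a library, so levels of different genes can be set side by side. How deeply each library was sequenced is unknown. Summed FPKM ranged from 470243 to 513817 per library. Libraries carried the markers of the labelled tissue, with a mean of 1 FPKM or more for 10 of 10 markers of elongating spermatids, 9 of 9 of spermatocytes, 10 of 10 of Sertoli cells and 8 of 8 of Leydig cells. Of the spermatogonia markers 7 of 10 reached this mean, and so did 3 of 10 markers of the epididymis. The labels give testis as the tissue, but their extraction protocol mentions sperm. The description of M5 replicate 2 points to the column of M5 replicate 1, and the title was followed. M3 replicate 3 stood apart from its group: on a scale over 820 genes that differed between M5 and MNC, where MNC is 0 and M5 is 1, it lay at 0.83, while the 8 other libraries of Con, M1 and M3 lay between 0.11 and 0.22.

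Park7 lies on the minus strand at chr4:150897133-150909921 (GRCm38.p6, the same build as mm10, which the submitters' processing notes name). Its values were spread over a 40.4-fold range. In Con it was at 1.95, 48.2 and 7.11 FPKM in replicates 1, 2 and 3. In MNC it was at 47.5, 28.7 and 48.9 FPKM, and in M1 at 29.7, 47.4 and 29.1 FPKM. Thus every library of MNC and M1 was at 28.7 FPKM or more, whereas Con held 1 library at that level and 2 far below it. In M3 it was at 1.21, 21.4 and 7.03 FPKM, and in M5 at 45.3, 11.9 and 2.89 FPKM. All M3 libraries were therefore below all MNC and M1 libraries, while M5 ran from close to the highest to close to the lowest value. Of all genes, 17.1% had no overlap between M3 and MNC and 10.5% between M1 and M3. Park7 was chosen on these values, so its separation is a description only. Between the highest and the lowest library of a group the ratio was 24.7 in Con, 17.7 in M3 and 15.7 in M5, but 1.7 in MNC and 1.63 in M1.

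Ordered by level, the libraries followed the groups only in part, since Con and M5 had libraries near both ends. The lowest were M3 replicate 1, Con replicate 1 and M5 replicate 3, at 1.21 to 2.89 FPKM. A gap of 2.43-fold separated these from M3 replicate 3 and Con replicate 3, which differed from each other by 1.01-fold. The highest were M5 replicate 1, M1 replicate 2, MNC replicate 1, Con replicate 2 and MNC replicate 3, at 45.3 to 48.9 FPKM, with steps of at most 1.04-fold between neighbours. These 5 libraries came from 4 of the 5 groups. By group mean the order was MNC with 41.7 ± 11.3 FPKM, M1 with 35.4 ± 10.4, M5 with 20.0 ± 22.4, Con with 19.1 ± 25.3 and M3 with 9.89 ± 10.4 (SD, n = 3 each), and each neighbour in this order differed by less than 1 SD of the group with the larger spread. M3 replicate 3, the library that stood apart, had a middle value in its own group.

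The spread within groups, pooled over the 5 groups, was 1.45 for Park7 (SD on the log2(FPKM + 1) scale). It ranked 46 among 14514 genes with a mean of 1 FPKM or more, so that 0.31% of genes varied more. The SD of the 9 other genes ran from 0.0506 for Prdx6 to 0.18 for Txndc2, with ranks between 4523 and 14234. A search of the GENCODE M21 transcripts found no other gene with a stretch of 100 bases or more at 95% identity or more to Park7. The sequence around the Park7 start, 250 bases before to 50 after it (RefSeq, GRCm38.p6, chr4:150909872-150910171, minus strand), is shown because this gene differed most among the libraries of the 10 genes. The capitals mark TGACG, the core of the site bound by CREB and CREM factors, which was searched on both strands and begins at the listed start.
Park7: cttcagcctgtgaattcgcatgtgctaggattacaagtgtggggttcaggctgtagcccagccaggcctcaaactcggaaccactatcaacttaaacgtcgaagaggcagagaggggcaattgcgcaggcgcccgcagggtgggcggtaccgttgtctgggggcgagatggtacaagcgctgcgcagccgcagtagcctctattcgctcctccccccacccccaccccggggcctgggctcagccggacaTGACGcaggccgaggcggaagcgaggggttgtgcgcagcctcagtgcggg
TGACG was present in 20.8% of 32851 RefSeq windows of this length, and in windows of Park7, Gpx4, Prdx4 and Sod1. The match is a description of the letters only.

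**Figure D1:**
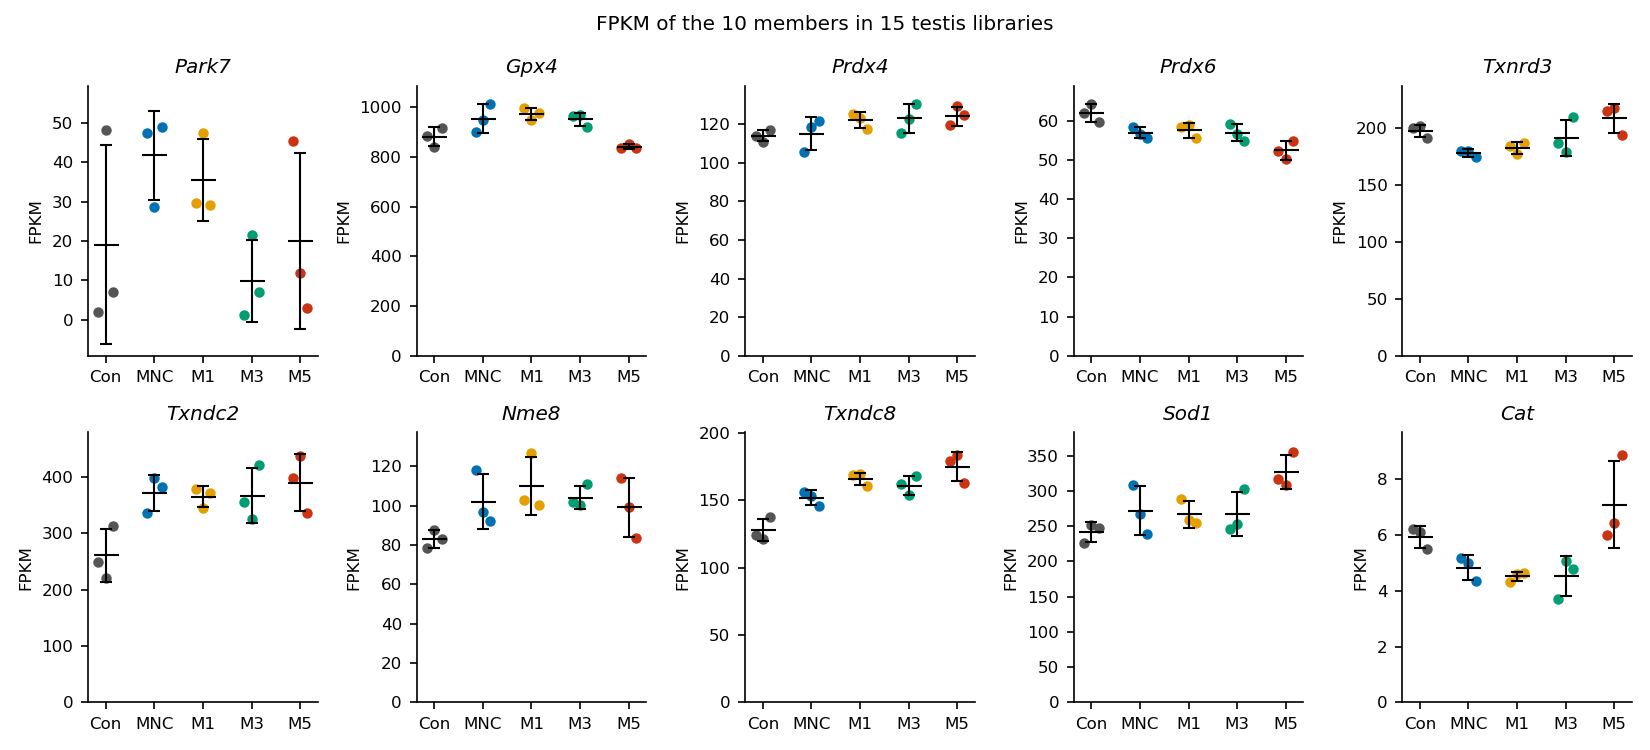
FPKM of the 10 genes (1 panel each, y axis) in the 5 groups (x axis); points are libraries in replicate order, long bars are means and error bars are 1 SD (n = 3) and pass below 0 where the SD exceeds the mean. Park7 ran from 1.21 to 48.9 FPKM with Con, M3 and M5 spread widely, while the other 9 genes had ratios of highest to lowest library between 1.22 and 2.39.

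The genes most like Park7 were sought by the Pearson r of log2(FPKM + 1) over the 15 libraries after the mean of each group was subtracted. Of the 8 genes with the highest r, Tmem201 (0.82) and Klk1b27 (0.80) themselves varied strongly, with SDs within groups of 0.97 and 1.16. Nufip2 (0.86), Cadm2 (0.86), Trappc8 (0.82) and Zranb3 (0.81) had deviations from their group means that followed those of Park7 but were small, with SDs of 0.0609 to 0.0714. Without subtraction of the group means, their r was 0.29, 0.39, 0.0498 and -0.15, in that order, and that of Tmem201 was 0.84. Nudt12os and Tm6sf2, each with r = 0.80, completed the set. The 4 lowest were Spg20 (-0.84), Pigb (-0.83) and 2 unnamed IDs, BGI_novel_G001142 (-0.84) and BGI_novel_G000179 (-0.82). These correlations describe 15 libraries that share their groups, and they were the extremes of 14514 genes. None of the 9 antioxidant genes was among them. Nme8 had r = 0.54 with Park7 and the others lay between -0.24 and 0.18.

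Tmem201, a protein of the inner nuclear membrane, is also on chromosome 4, at 1.16 Mb from Park7 towards lower coordinates. The genes within 3 Mb of Park7 were therefore examined. This window, and the thresholds of 0.5 for the SD and 0.6 for r, were chosen after these values had been seen. Tmem201, which led to this step, is itself counted below at both thresholds, so the shares are a description only. Of 45 genes in the window, 11 (24.4%) had an SD within groups of 0.5 or more, compared with 4.22% of the 14468 genes tested outside the window. All 11 lay among the 27 genes on the side of lower coordinates. On the other side, none of 18 genes reached 0.5, and the highest SD was 0.31. Similarly, 8 genes of the window (17.8%) had r of 0.6 or more with Park7, compared with 1.65% of the genes outside it. These 8 were on the side of lower coordinates too. An r of -0.6 or less was found for 2 genes (4.44%), compared with 1.18% outside. They were Vamp3 and Chd5, both on the side of higher coordinates. The values of neighbouring genes are not independent of each other, and no cause was tested.

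Tmem201, Nmnat1, Pik3cd and Clstn1 had the highest r with Park7 of these neighbours. Tmem201 was at 0.08, 2.63 and 0.29 FPKM in Con, where Park7 was likewise high only in replicate 2. It was at 4.78, 0.72 and 4.91 FPKM in MNC and at 4.32, 0.59 and 0.10 FPKM in M5. In M3 it was listed at 0 in replicate 1 and had 1.90 and 0.20 FPKM in replicates 2 and 3, again in the order of Park7, while in M1 it had 2.31, 2.49 and 0.23 FPKM, where Park7 was nearly equal in replicates 1 and 3. Nmnat1, an enzyme of NAD synthesis in the nucleus at 1.41 Mb, had r = 0.78 and was at 6.17, 12.5 and 5.75 FPKM in Con and at 17.8, 8.83 and 4.55 FPKM in M5. It was at 15.3, 6.09 and 14.4 FPKM in MNC, at 11.3, 13.1 and 5.45 FPKM in M1 and at 5.76, 10.7 and 6.13 FPKM in M3. In MNC replicate 2 and M1 replicate 3, Tmem201 and Nmnat1 were thus low although Park7 was at 28.7 and 29.1 FPKM. Pik3cd, a catalytic subunit of PI3 kinase, also had r = 0.78 and ran from 4.11 FPKM in M5 replicate 3 to 18.7 FPKM in MNC replicate 1. Clstn1, a calsyntenin, had r = 0.74, but in M5 it was at 7.28, 2.88 and 3.85 FPKM, with replicates 2 and 3 in the opposite order to Park7.

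Other neighbours also varied strongly but followed Park7 less closely. Eno1, the glycolytic enolase at 0.648 Mb, had an SD within groups of 1.51, larger than that of Park7, and ran from 0.70 to 129 FPKM. In Con it was at 2.30, 2.40 and 2.79 FPKM, without the high replicate 2 of Park7. In MNC it was at 129, 10.04 and 44.0 FPKM and in M5 at 52.0, 6.31 and 1.44 FPKM. Slc2a5, the fructose transporter GLUT5 at 0.753 Mb, was near the same floor in all Con and M3 libraries (10.99 to 13.5 FPKM) and reached 176, 30.8 and 99.0 FPKM in MNC. Thus Eno1 and Slc2a5 shared high libraries with each other, and with Park7 in MNC, M1 and M5 but not in Con. Their r with Park7 was 0.49 and 0.47 within groups, and 0.68 and 0.67 without subtraction of the group means. Eno1 shares stretches of 95% identity or more with 3 other genes, among them Eno1b at 99.5%, and its level is uncertain to that extent. Pgd, an enzyme of the pentose phosphate pathway that yields NADPH, had an SD of 0.65 and ran from 0.34 to 14.5 FPKM.

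The nearest genes did not share the pattern. Errfi1, at 0.0282 Mb on the side of lower coordinates, had an SD of 0.22 and r = 0.30. Vamp3, a vesicle SNARE protein at 0.137 Mb on the other side, ran from 28.1 to 47.5 FPKM with r = -0.75. Among the same windows around the other 9 genes, 5 of 27 genes reached an SD of 0.5 near Prdx4, 3 of 26 near Nme8 and 1 of 129 near Gpx4, and none did near the remaining 6 genes.

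**Figure D2:**
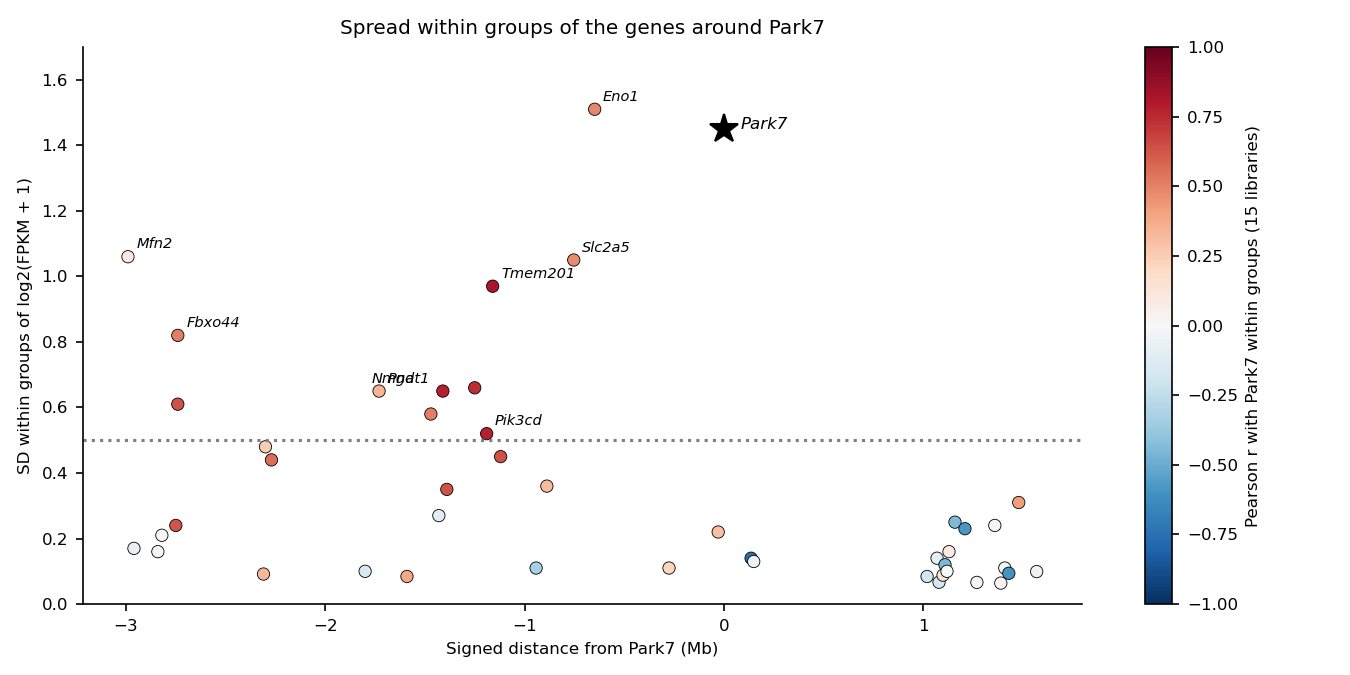
SD within groups of log2(FPKM + 1) (y axis) of the 45 genes within 3 Mb of Park7, by their signed distance from it in Mb (x axis); colour gives Pearson r with Park7 within groups over 15 libraries, the star is Park7 and the dotted line marks 0.5. All 11 genes at or above the line are on the side of lower coordinates, and the highest SD on the other side is 0.31.

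**Figure D3:**
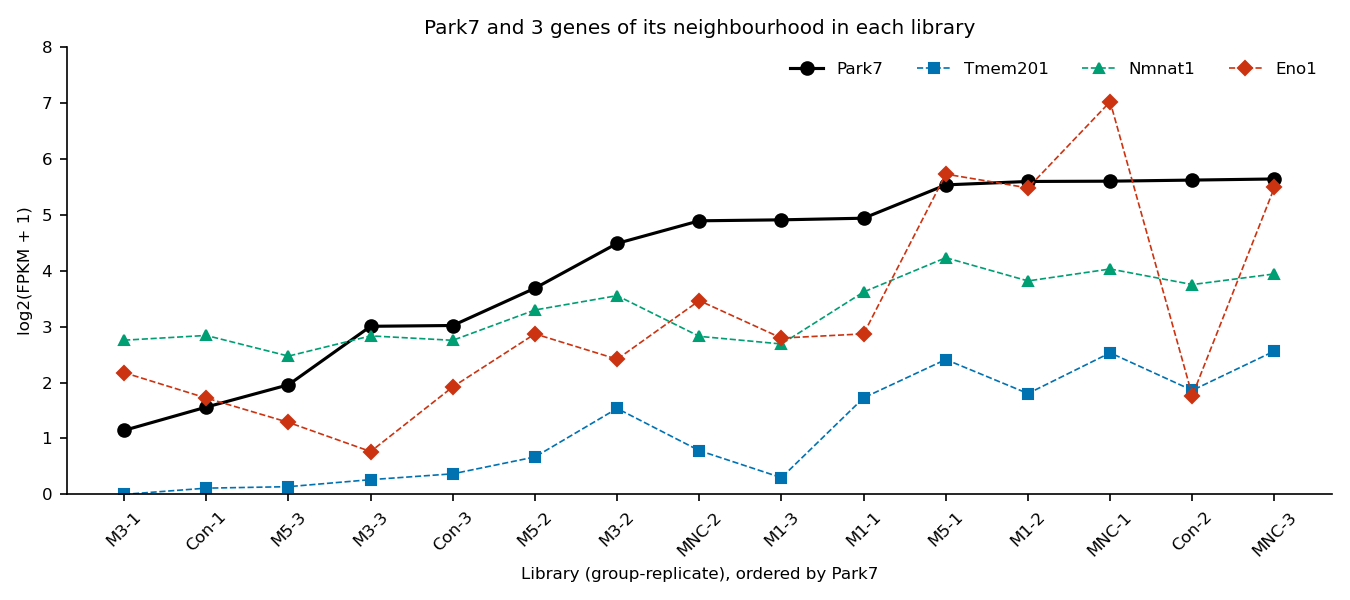
log2(FPKM + 1) (y axis) of Park7, Tmem201, Nmnat1 and Eno1 in the 15 libraries ordered by Park7 (x axis); each point is 1 library and lines only join points of a gene. Tmem201 is at 2.49 FPKM or more and Nmnat1 at 12.5 or more in the 5 libraries where Park7 is at 45.3 or more, but they are at most at 0.72 and 6.09 in MNC replicate 2 and M1 replicate 3, and Eno1 is at 2.40 FPKM in Con replicate 2 where Park7 is at 48.2 FPKM.

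The 9 antioxidant genes were compared between each knockdown and MNC, which asks whether these transcripts differed where a muscarinic receptor was targeted. How far each receptor was reduced in these libraries is not given here. The 3 comparisons share the MNC libraries. Differences are on the log2(FPKM + 1) scale. limma was used, with adjusted p-values over 14514 genes, and the threshold for a call was 0.05. None of the 9 was called between M5 and MNC, where 5.65% of all genes were called, and 5 of the 9 had an unadjusted p under 0.05, as had 3620 of all genes. However, in 6 of the 9 the M5 libraries did not overlap the MNC libraries, compared with 32.1% of all genes. The median difference of the 9 genes was 0.11, and that of all genes was 0.025.

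Gpx4 is the glutathione peroxidase that reduces lipid peroxides in membranes and forms part of the structure of the sperm midpiece. It lies at chr10:80047166-80056439 and was the most abundant of the 10 genes. It was at 836, 853 and 834 FPKM in M5, and MNC was at 901, 946 and 1014 FPKM. All M5 libraries were lower, and the means of 841 ± 10.5 and 954 ± 56.9 FPKM (SD, n = 3 each) differed by -0.18 (SE 0.066, limma adjusted p = 0.154). Con was at 885, 840 and 918 FPKM, so M5 overlapped Con. M1 and M3 were at 920 to 997 FPKM. Gpx4 has near-identical copies, the closest being Gpx4-ps2 with 99.7% identity over 733 bases, and reads could be split between them.

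Among the peroxiredoxins, Prdx4, the form of the endoplasmic reticulum (chrX:155323918-155342272), was even in all groups, from 106 to 130 FPKM. Its difference between M5 and MNC was 0.11 (SE 0.070, limma adjusted p = 0.381). Prdx6, which also repairs oxidised membrane lipids (chr1:161240112-161251210), was at 52.2, 50.2 and 54.9 FPKM in M5, and MNC was at 58.4, 56.5 and 55.7 FPKM. All 3 M5 libraries were below all MNC libraries by a small margin, a difference of -0.12 (SE 0.057, limma adjusted p = 0.267).

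In the thioredoxin system, Txnrd3 is the thioredoxin and glutathione reductase of the testis, and lies at chr6:89643988-89675529. It was at 214, 217 and 194 FPKM in M5, and MNC was at 180, 180 and 174 FPKM. No value of M5 and MNC overlapped, and the difference of 0.23 (SE 0.061) had the lowest p of the 9 genes (limma adjusted p = 0.082). Con was at 200, 201 and 191 FPKM, so M5 overlapped Con. M3 replicate 3 was at 209 FPKM, against 186 and 179 FPKM in the other M3 libraries. Txndc8, a thioredoxin of spermatids (chr4:57984021-58009135), was at 179, 184 and 163 FPKM in M5 and 156, 153 and 146 FPKM in MNC. This was a difference of 0.21 (SE 0.064, limma adjusted p = 0.111), again with no overlap. When all 5 groups entered the same model, which pools the spread over more libraries, 4 genes were called: Txnrd3 (limma adjusted p = 0.0268), Cat (0.0314), Txndc8 (0.0373) and Gpx4 (0.0404). Without M5 replicate 3, Txnrd3 (limma adjusted p = 0.0329) and Txndc8 (0.0491) were called. The share of all genes called in these alternative fits was not recorded, so these counts have no background beside them.

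Txndc2 and Nme8 did not separate M5 from MNC. Txndc2, a thioredoxin of the sperm tail (chr17:65637505-65648874), was at 398, 437 and 337 FPKM in M5 and 337, 398 and 382 FPKM in MNC. The difference was 0.064 (SE 0.11, limma adjusted p = 0.769). Nme8, a protein with thioredoxin and nucleoside diphosphate kinase domains (chr13:19645078-19697826), was at 114, 99.1 and 83.7 FPKM in M5 and 118, 96.5 and 92.0 FPKM in MNC. It differed by -0.049 (SE 0.14, limma adjusted p = 0.866).

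Sod1, the copper and zinc superoxide dismutase of the cytosol (chr16:90220762-90226333), was at 317, 308 and 355 FPKM in M5 and 308, 268 and 239 FPKM in MNC. The M5 libraries were all higher than the 12 libraries of the other groups, which was the case for 2.6% of all genes (3.29% were all lower), although M5 replicate 2 exceeded MNC replicate 1 only narrowly. The difference was 0.27 (SE 0.11, limma adjusted p = 0.174). Sod1 shares 97.8% identity over 465 bases with the pseudogene Gm8566. Cat encodes catalase, lies at chr2:103453904-103485153 and was the lowest of the 10 genes by mean. It was at 5.98, 6.41 and 8.86 FPKM in M5, and MNC was at 5.16, 5.01 and 4.33 FPKM. These 2 groups did not overlap, and the difference was 0.46 (SE 0.15, limma adjusted p = 0.131). Con was at 6.20, 6.11 and 5.49 FPKM, so M5 overlapped Con. M5 replicate 3 was the highest, and without it the difference was 0.30 (limma adjusted p = 0.121).

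Red blood cells are rich in both catalase and Sod1, and their markers moved with M5. The 8 markers summed to 197 to 536 FPKM in M5, with 536 in replicate 3, and to 65.2 to 78.1 FPKM in MNC. Of the 6 markers tested, all 6 were higher in M5 and 3 were called, while Slc4a1, the anion exchanger of the red cell membrane, was under 1 FPKM in all libraries. Macrophage markers were also higher in M5 in 9 of 10 cases, with none called, and summed to 138 to 357 FPKM against 110 to 196 FPKM in MNC. Over the 15 libraries, r with the mean log2(FPKM + 1) of the red cell markers was 0.65 for Cat and 0.78 for Sod1, and within groups it was 0.71 and 0.43. The r of Cat over the 15 libraries was higher with Leydig cell (0.80), macrophage (0.68) and Sertoli cell markers (0.67). That of Sod1 was 0.75 with macrophage markers. Within groups, too, other lists had a higher r. For Cat it was 0.86 with Sertoli cell and with Leydig cell markers and 0.77 with macrophage markers, and for Sod1 it was 0.63 with spermatocyte, 0.59 with Leydig cell and 0.58 with macrophage markers. The part of these cells in the levels of Cat and Sod1 was not tested.

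For M1 and M3 the 9 genes showed little difference from MNC. No gene of the 9 was called in either comparison by limma, where 0% and 0.00689% of all genes were called. At an unadjusted p under 0.05 there were 1 of the 9 and 862 of all genes for M1, and 0 of the 9 and 1369 of all genes for M3. The median difference of the 9 genes was 0.031 for M1 and 0.00077 for M3, against -0.018 and -0.040 for all genes. In M1, Txndc8 was at 169, 169 and 161 FPKM, above all MNC libraries, a difference of 0.13 (SE 0.043, limma adjusted p = 0.819). It was the only gene of the 9 without overlap there, and 12% of all genes had none. In M3 none of the 9 was free of overlap, compared with 17.1% of all genes. M3 replicate 3 had the highest value of its group for Txnrd3, Txndc2, Nme8, Txndc8, Sod1 and Prdx4. Without this library no gene of the 9 was called either.

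The knockdown groups were also compared with each other, a step added after the data had been seen. Between M5 and M1 none of the 9 was called, at a background of 6.75% of all genes, and 5 of the 9 had no overlap, against 33.7% of all genes. The adjusted p-values of limma were 0.0676 for Gpx4 (a difference of -0.21, SE 0.053), 0.0754 for Cat (0.54, SE 0.14) and 0.0771 for Sod1 (0.29, SE 0.078). Without M5 replicate 3, however, 3 genes were called (Gpx4, Txnrd3 and Cat), in a fit whose share of all genes called was not recorded. None was called between M5 and M3 (background 0.0138%), where 3 of the 9 had no overlap (22.9% of all genes), or between M1 and M3 (background 0%).

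**Figure D4:**
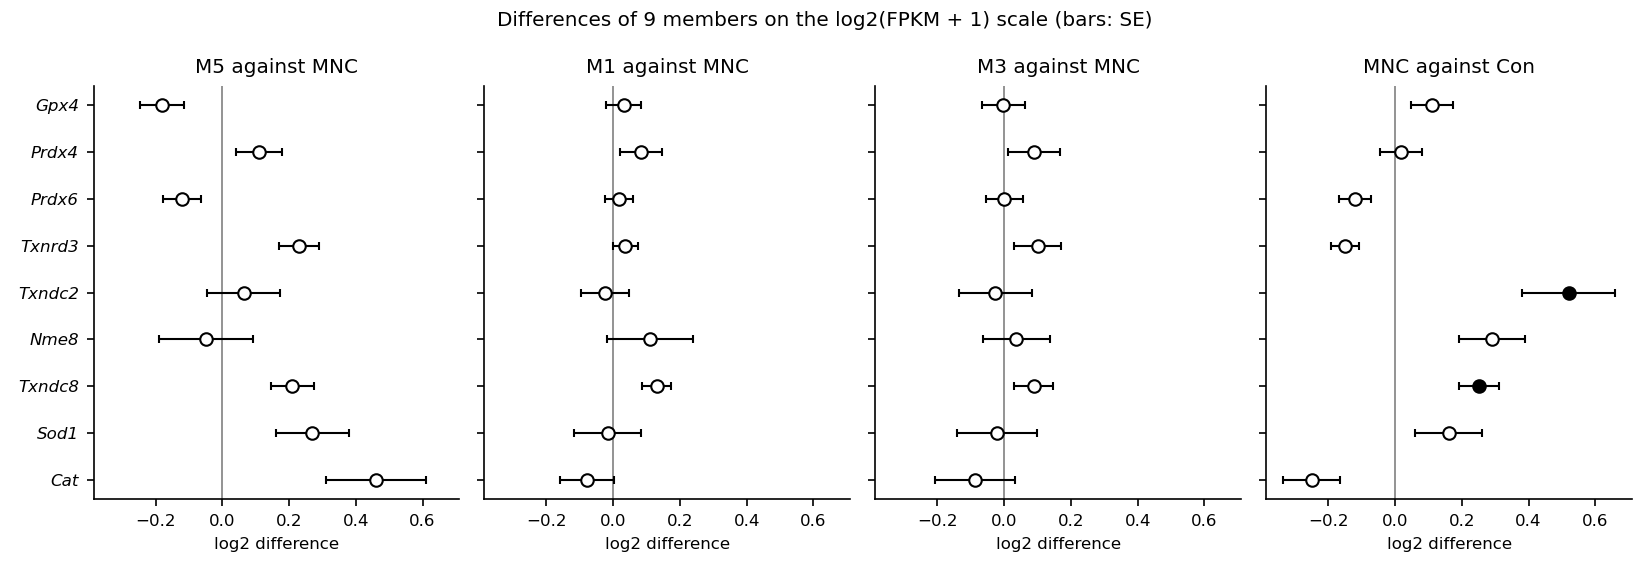
Differences of the 9 genes on the log2(FPKM + 1) scale (x axis) in 4 comparisons (panels), with bars of 1 SE from limma; filled points are called at an adjusted p under 0.05. Only Txndc2 (0.52) and Txndc8 (0.25) between MNC and Con are filled, and Cat has the widest difference between M5 and MNC at 0.46.

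The comparison of MNC with Con shows how the vector control differed from the other control group. It gave the only calls among the 9 genes. Txndc2 and Txndc8 were higher in MNC, against 8.03% of all genes called higher and 20.4% called in either direction. Txndc2 was at 250, 220 and 313 FPKM in Con and at 337 to 398 FPKM in MNC, and rose by 0.52 (SE 0.14, limma adjusted p = 0.0435). Txndc8 was at 125, 122 and 137 FPKM in Con and at 146 to 156 FPKM in MNC, and rose by 0.25 (SE 0.060, limma adjusted p = 0.0382). The median of all genes fell by 0.10 in this comparison. The Con libraries of both genes were also below all 12 libraries of the other groups, as were those of 6.25% of all genes. Neither call was firm: across 14 alternative fits, that of Txndc2 held in 4 and that of Txndc8 in 5, always with the same sign. Without Con replicate 3 both calls held, without MNC replicate 1 that of Txndc2 held (limma adjusted p = 0.0497), and without any of the other 4 libraries neither did.

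In 4 other genes MNC did not overlap Con, and 46.5% of all genes showed no overlap. Prdx6 was at 61.9, 64.2 and 59.8 FPKM in Con, higher than in any of the 12 other libraries (11.5% of all genes were), and differed from MNC by -0.12 (SE 0.047, limma adjusted p = 0.105). Txnrd3 was at 200, 201 and 191 FPKM in Con and differed by -0.15 (SE 0.042, limma adjusted p = 0.0512). Cat was at 6.20, 6.11 and 5.49 FPKM in Con, with a difference of -0.25 (SE 0.086, limma adjusted p = 0.0831). Nme8 was at 78.3, 87.5 and 82.9 FPKM in Con, with a difference of 0.29 (SE 0.10, limma adjusted p = 0.0834). Gpx4, Prdx4 and Sod1 overlapped between MNC and Con.

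The sequences before the starts of the called genes Txndc2 and Txndc8 are shown because these were the members that passed the test (RefSeq, GRCm38.p6, minus strand of both, chr17:65642155-65642454 and chr4:58009077-58009376, 250 bases before to 50 after a listed start). The capitals mark a match to TGACNTCA on either strand, a form of the CREB and CREM site that was chosen after the sequences had been read.
Txndc2: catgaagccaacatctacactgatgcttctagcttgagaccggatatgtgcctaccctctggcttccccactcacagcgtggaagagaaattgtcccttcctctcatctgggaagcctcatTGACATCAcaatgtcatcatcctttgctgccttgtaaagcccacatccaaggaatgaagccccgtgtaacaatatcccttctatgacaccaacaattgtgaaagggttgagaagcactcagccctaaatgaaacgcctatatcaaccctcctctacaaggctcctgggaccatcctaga
Txndc8: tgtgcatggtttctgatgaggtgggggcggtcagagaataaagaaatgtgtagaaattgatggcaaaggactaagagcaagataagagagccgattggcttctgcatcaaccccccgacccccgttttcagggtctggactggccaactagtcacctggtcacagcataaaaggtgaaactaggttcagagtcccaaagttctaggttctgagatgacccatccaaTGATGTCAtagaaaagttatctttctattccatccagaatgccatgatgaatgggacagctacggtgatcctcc
The motif was also present in the window of Cat, and in 8.83% of all 32851 windows. The full palindrome TGACGTCA (1.79% of windows) was in no window of the 9 genes that had one. TGACNNNGC, the antioxidant response element, was in windows of Sod1 and of another start of Txndc2 (12.4% of windows). Prdx6 was not matched to a window.

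Markers of late spermatids moved with the same comparison. The 10 markers of elongating spermatids, such as Prm1 and Tnp1, which encode proteins that package sperm DNA, summed to 11714 to 22584 FPKM in Con and to 24232 to 30610 FPKM in MNC. All 10 were higher in MNC and 5 were called. The 8 round spermatid markers were all higher and 4 were called, whereas 9 of 9 spermatocyte markers were lower and 6 were called. Of the Sertoli cell markers 9 of 10 were lower and 2 were called, and of the macrophage markers 9 of 10 were higher and 1 was called. The epididymis list summed to 21.2 to 61.5 FPKM in Con and to 1.48 to 2.26 FPKM in MNC, although Crisp4, Lcn5, Lcn8 and Spink13 were under 1 FPKM in every library. Across the 15 libraries, r with the mean log2(FPKM + 1) of the elongating spermatid markers was 0.93 for Txndc2 (0.90 within groups), 0.82 for Txndc8 (0.66) and -0.70 for Prdx6 (-0.77). Other lists had r of similar size. For Txndc2 it was -0.83 with epididymis (-0.51 within groups) and -0.81 with spermatogonia markers (-0.64). For Txndc8 it was -0.79 with spermatogonia (-0.62) and 0.77 with round spermatid markers (-0.0308), and for Prdx6 0.73 with epididymis markers (0.57). The libraries share their groups and their scaling, and elongating spermatid genes hold a sizeable share of the FPKM. Con replicate 3 had the highest sum of Con and also its highest Txndc2 and Txndc8. The part of cell composition in these differences was not tested.

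**Figure D5:**
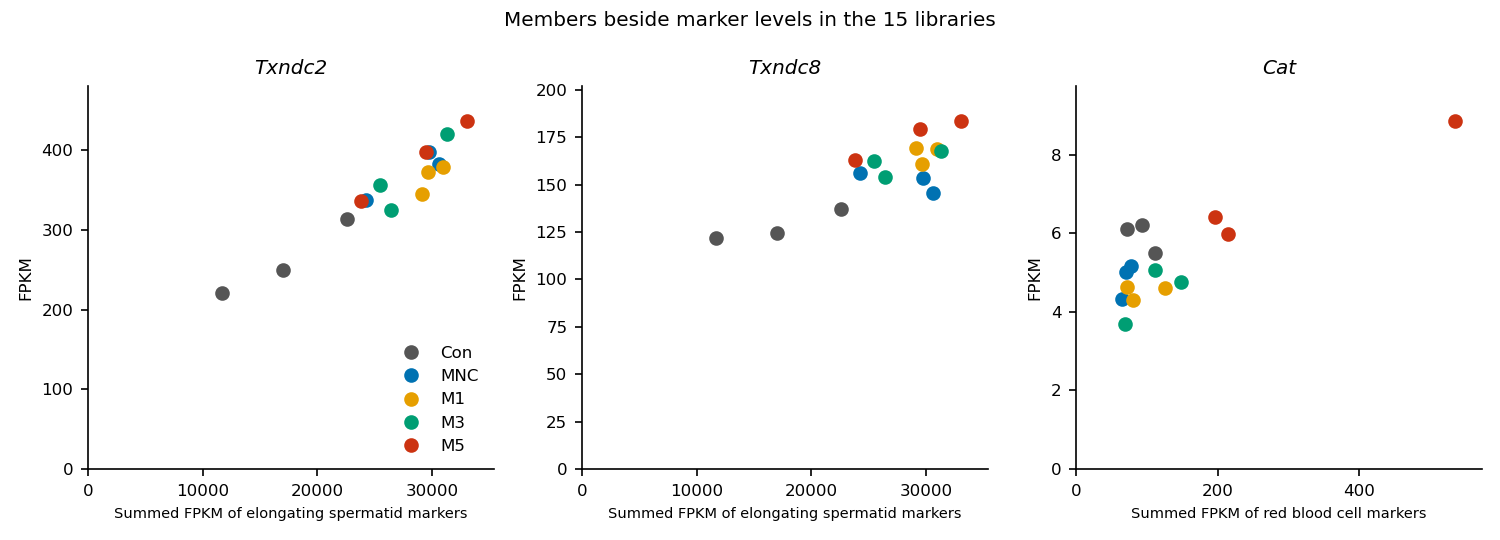
FPKM of Txndc2 and Txndc8 (y axes) against the summed FPKM of 10 elongating spermatid markers (x axis), and of Cat against the summed FPKM of 8 red blood cell markers; points are the 15 libraries coloured by group. Txndc2 is lowest in Con replicate 2 at 220 FPKM, where the marker sum is 11714, and M5 replicate 3 lies at the top right of the Cat panel with 8.86 FPKM and a marker sum of 536. Over the 15 libraries, Cat had a higher r with Leydig cell, macrophage and Sertoli cell markers than with red blood cell markers.

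To place the 9 genes among their pathways, 9 lists were examined, with 100 genes in all of which 88 were tested. They cover antioxidant enzymes and selenoproteins, and also the oxidases that produce oxidants and a list of mitochondrial quality control genes linked to Park7, which does not hold Park7 itself. Between M5 and MNC, 4 of the 88 rose and 1 fell, the median difference was 0.078, and of all genes 2.76% rose and 2.89% fell. The members that rose were Selenof, a selenoprotein of the endoplasmic reticulum (103 ± 4.18 against 66.2 ± 5.86 FPKM, SD, n = 3 each, a difference of 0.63, limma adjusted p = 0.0165), Hspa9, the mitochondrial HSP70 (0.35, limma adjusted p = 0.0377), Vps35 of the retromer complex (0.33, limma adjusted p = 0.0393) and Selenot (0.32, limma adjusted p = 0.0473). Selenov, a selenoprotein of the testis, fell by 0.43, from 194 ± 4 FPKM in MNC to 143 ± 4.29 FPKM in M5 (SD, n = 3 each, limma adjusted p = 0.0149). The calls of Selenof and Selenov held in 9 and 8 of 14 alternative fits, and those of Hspa9, Vps35 and Selenot in 5, 4 and 3. Vps35, Selenot and Selenov were also called between MNC and Con, with the opposite sign. Both comparisons use the same MNC libraries, on opposite sides, so the opposite sign is not an independent result. Mean Vps35 was 39.9 FPKM in M5, 31.6 in MNC and 40.9 in Con. Selenot was at 34.6, 27.4 and 33.2 FPKM in the same order, and Selenov at 143, 194 and 113 FPKM. Between M5 and M1, 4 of the 88 were called higher and 4 lower, against 3.23% and 3.52% of all genes.

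No gene passed the test among the 5 superoxide dismutase and catalase genes, the 7 peroxiredoxin and sulfiredoxin genes, the 6 glutathione peroxidases, the 16 thioredoxin genes, the 17 genes of glutathione synthesis and transfer or the 11 genes of the Nrf2 pathway tested between M5 and MNC, nor among the 6 genes of oxidant-producing oxidases. The median differences of these lists, in the same order, were 0.047, 0.11, -0.0082, 0.20, -0.025, 0.073 and 0.44. For M1 and M3, none of the 88 genes was called, and the medians were -0.022 and -0.075.

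Between MNC and Con, 7 of the 88 genes rose and 7 fell, with a median difference of -0.083. Of all genes, 8.03% rose and 12.4% fell. The genes with the widest rise were Glrx2, a mitochondrial glutaredoxin (59.4 ± 12.1 FPKM in MNC against 31.5 ± 5.49 in Con, SD, n = 3 each, a difference of 0.89, limma adjusted p = 0.0266), Rac2, a small GTPase of the phagocyte oxidase (0.84, limma adjusted p = 0.0299), and Selenov (0.78, limma adjusted p = 0.0107). Mgst2, a microsomal glutathione transferase (0.73, limma adjusted p = 0.0164), and the glutathione peroxidase Gpx6 (0.65, limma adjusted p = 0.0192) rose too, beside Txndc2 and Txndc8. The genes that fell included the cytosolic peroxiredoxins Prdx1 (a difference of -0.37, limma adjusted p = 0.0462) and Prdx2 (-0.31, limma adjusted p = 0.0352), and Vps35 (-0.36, limma adjusted p = 0.0244). The remaining 4 were Atp13a2, Selenoo, Sephs2 and Selenot, with differences of -0.27 to -0.34. Selenov held its call in 12 of 14 alternative fits, Mgst2 in 11 and Gpx6 in 10, while Prdx1 held it in 3.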

How the data were processed

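Testis RNA was sequenced in 15 libraries, 3 each of Con, MNC, M1, M3 and M5, grouped by sample title. The authors deposited 1 table of FPKM values to 2 decimals; their methods name SOAPaligner, the processing notes name mm10, and the annotation was not given in the sources used here. IDs were named from the RefSeq table of GRCm38.p6 (21143 of 23510 matched). Depth per library was unknown, and so no interval from counts could be given.

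Values were taken as log2(FPKM + 1), and 14514 genes whose mean FPKM reached 1 were tested, all 10 members included. The test of the study models counts, so limma 3.58.1 (lmFit, eBayes with trend, R 4.3.3) was fitted to the 2 groups of each comparison without covariates, two-sided, with Benjamini-Hochberg adjustment across the tested genes. The fits were tested on simulated data. Near copies were sought with blastn 2.17.0, and other steps used Python 3.11.15. Members, lists and tests were chosen with earlier results of these data known. Named genes are the members, the called genes of the lists (5 per direction at most by fold where more than 10 were called, others named here being so by choice after their values were seen), the 8 genes highest and 4 lowest in r with Park7, and the chromosome neighbours, which were picked after the data were seen. Alternatives were a pseudocount of 0.1, a filter of 0.1 or none, median centring, quantile normalization, all groups in 1 fit, no trend, a replicate block, the threshold of the study (adjusted p of 0.001 and log2 difference of 1) and each library left out.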

Additional observations from a re-analysis of the deposited data

How the results depend on the processing

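Of the 9 antioxidant genes, the number called between M5 and MNC was 0. It became 1 with quantile normalization (Txnrd3) and 4 with all 5 groups in 1 fit, and ran from 0 to 2 with a library left out. Between MNC and Con it was 2. With median centring it was also 2, but the genes were Txndc8 and Nme8. It became 1 with a filter of 0.1 FPKM (Txndc8) or quantile normalization (Txnrd3), 0 with no filter, without the trend or at the threshold of the study, and ran from 0 to 2 with a library left out. Between M5 and M1 it was 0, became 2 with quantile normalization and 2 with all 5 groups, and ran from 0 to 3 with a library left out. It stayed 0 under each alternative for M1 and M3 against MNC, M5 against M3 and M1 against M3. A fit with fewer libraries has less power, and the cause of the other changes was not tested. The share of all genes called under each alternative was not recorded, so a changed count may not be particular to these genes. With the replicate number as a block, the count between MNC and Con was 0, and no other count of the 9 genes changed. Same-numbered libraries had deviations with correlations from -0.40 to 0.18, so the numbers were not taken as pairs. The SD of Park7 within groups was 1.45, and ran from 1.23 to 1.53 with a library left out, and from 1.46 to 1.65 with median centring, quantile normalization or a pseudocount of 0.1. Among the 9 antioxidant genes, no difference between groups that did not overlap changed sign under the alternatives. Their other differences, and those of Park7, were not followed. Depth, and with it counting error, is unknown, which limits low values such as those of Cat and Tmem201 most.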
